A study of Mus musculus with 15 samples.

Results

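The BCL2 family sets whether a cell survives or enters apoptosis. The genes described here were Bcl2, Bcl2l1, Mcl1, Bax, Bad, Bak1 and Bid, read by every probe set (the short probes that together measure a transcript on the array) annotated to them. Of these 7 genes, 6 had a probe set among the 8221 genes named on the array, 11 probe sets in all, and Bax had 0. Mouse embryonic stem (ES) cells of 3 lines were stimulated with fetal bovine serum (FBS) and measured on Affymetrix MGU74A arrays, with 1 array for each line at 0, 10, 30, 60 and 180 min. The lines were wild-type (E14wt), Srf-null (E100-/-, which lacks the transcription factor serum response factor, SRF) and rescue (E100-/- rescue). How the rescue was made, whether E100-/- is a single clone, and how the cells were kept before serum are not given in these sources. Each line was 1 series of cultures as far as the labels say, so a p-value here reflects scatter between the times of a line rather than between lines derived separately.

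Proteins of the family act on the outer membrane of mitochondria. BCL2, BCL-XL (encoded by Bcl2l1) and MCL1 hold back the effectors BAX and BAK (Bak1), which otherwise open that membrane and release cytochrome c, while the BH3-only proteins BAD and BID tip the balance towards death. SRF binds a sequence called the CArG box and works with MRTF cofactors or with ETS-domain cofactors that serum activates, and Bcl2 has been reported as a target of SRF in ES cells.

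The stretch before the transcription start of Bcl2, and one that runs just across that of Mcl1, are shown. Bcl2 is the reported SRF target, and Mcl1 was called between 2 lines on the arrays from 10 min on. Both were taken from RefSeq (GRCm38.p6) and read 5′ to 3′ towards the gene. Capitals mark GC boxes (GGGCGG, or CCGCCC on the other strand) in the Bcl2 sequence, chr1:106714291-106714540, minus strand. Capitals in the Mcl1 sequence, chr3:95658621-95658722, plus strand, mark the ETS core CCGGAA and, at its end, a CArG box with 1 mismatch.
Bcl2: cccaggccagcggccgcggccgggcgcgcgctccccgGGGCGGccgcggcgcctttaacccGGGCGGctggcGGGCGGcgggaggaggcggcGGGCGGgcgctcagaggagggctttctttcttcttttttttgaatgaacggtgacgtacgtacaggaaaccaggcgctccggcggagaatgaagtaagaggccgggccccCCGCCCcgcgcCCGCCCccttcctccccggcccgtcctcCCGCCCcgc
Mcl1: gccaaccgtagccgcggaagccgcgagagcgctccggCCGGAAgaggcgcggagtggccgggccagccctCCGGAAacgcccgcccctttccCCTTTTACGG
The Mcl1 match was CCTTTTACGG, its first base lying 8 bases before the start, so that the match ran across the start. The ETS cores began 63 and 30 bases before the start. Both strands were searched in windows of 300 bases, from 250 bases before each start to 50 after it. A full CArG box was in 0 of the 10 windows of the 7 genes and in 1.63% of all 32851 windows. With at most 1 mismatch it was in 1 of 10 windows (Mcl1) and in 21.1% of all. The ETS core, as CCGGAA or TTCCGG, was in 4 of 10 windows and in 14.9% of all, and the GC box in 5 of 10 and in 35.7% of all. A match is a description of letters in this window and not a binding site.

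The arrays differed in overall signal and in quality. Trimmed means ran from 350.2 to 1438 intensity units. Between 25.0% and 41.6% of values were 0 or below, with over 35% on 5 arrays (Srf-null at 30, 60 and 180 min, rescue at 0 and 10 min). The beta-actin 3′ to 5′ signal ratio, which rises as RNA degrades, reached 7.53 and 4.22 at 0 min of wild-type and rescue and 2.94 and 3.83 at 0 and 60 min of Srf-null, with 0.847 to 2.11 elsewhere. Of 13 ES cell markers, 11 were above the floor on all 15 arrays. The summed signal of 8 trophoblast markers was 2078 on wild-type 0 min and 2000 on rescue 0 min, against 5975 to 7489 and 11202 to 17881 on the later arrays of these lines, and Srf-null stayed between 1168 and 2307 on all 5 arrays. Of these markers Krt8 and Krt18 were above the floor on all arrays, reaching 6340 and 7036 units. Eomes was above it on 14, Plac8 on 11, Tfap2c on 10, Cdx2 on 4, Ascl2 on 2 and Hand1 on 0. The summed signal of 13 fibroblast feeder markers was 5668 in wild-type cells at 0 min, against 2037 to 3348 elsewhere, with Col1a2 and Pdgfra at the floor throughout. The wild-type and rescue 0 min arrays therefore stood apart from their lines, and comparisons are given on all 15 arrays and on the 12 from 10 min on. Srf itself was not analysed here, so the genotypes were not checked on its own transcript.

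Levels are given as normalized intensity units, on which values under 84.98 (log2 6.41) count as the floor. They can be compared between arrays for 1 probe set and not between probe sets. Of the 11 probe sets, 6 were above the floor on 13 or more arrays, 1 for each of the 6 genes, and 4 of these (Bcl2l1, Mcl1, Bak1 and Bid) on all 15. Another 2 passed the filter on 2 arrays each, and 3 did not pass it, which left 8 tested. In bulk RNA, fewer cells of a type and less RNA per cell cannot be told apart.

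**Figure D1:**
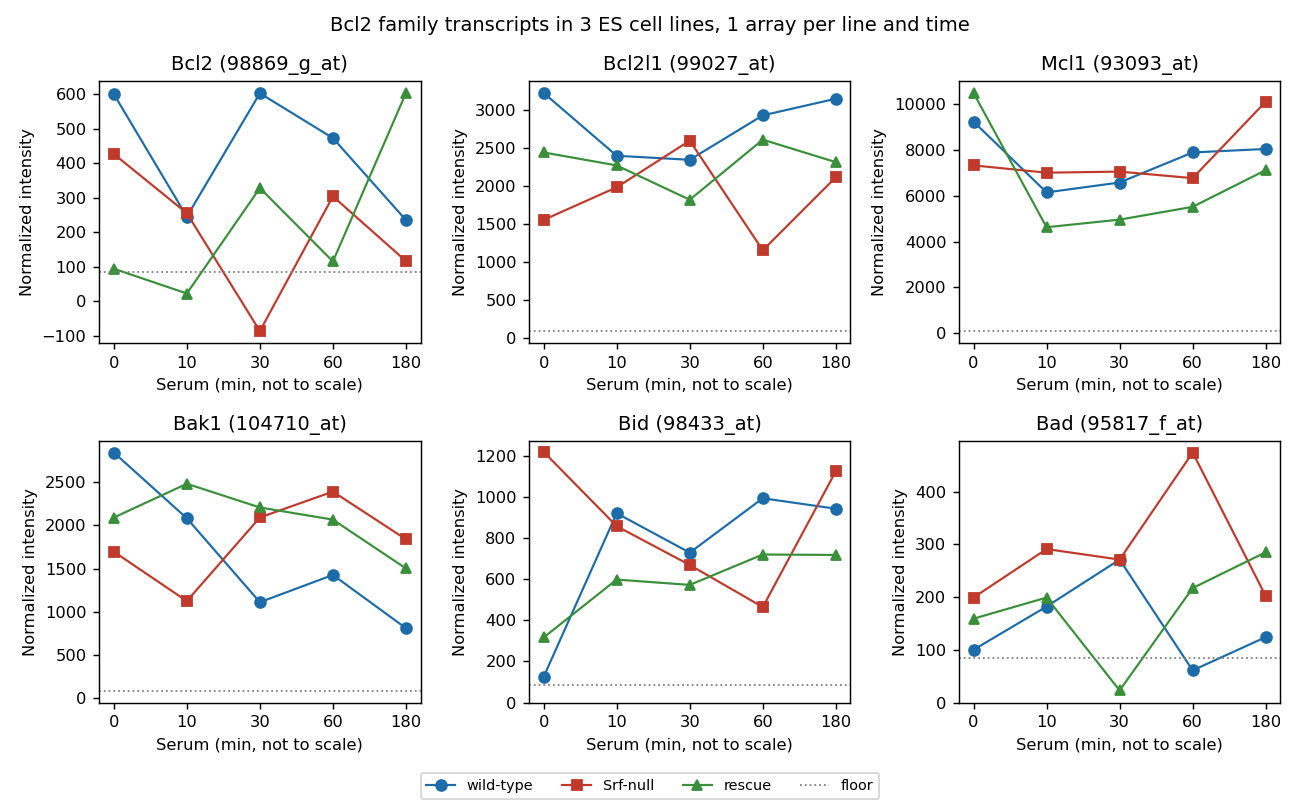
Normalized intensity (y axis, linear) of 1 probe set per gene against minutes of serum (x axis, not to scale) in wild-type, Srf-null and rescue ES cells, 1 array per point, with the floor of 84.98 as a dotted line. Mcl1 was lowest in rescue at every time from 10 min on, and Bak1 in wild-type cells gave 2845 at 0 min and 809 at 180 min.

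Bcl2, the founding survival gene of the family, lay close to the floor on several arrays and scattered widely within every line. By its probe set 98869_g_at, wild-type cells gave 601, 245, 603, 473 and 235 normalized units at 0, 10, 30, 60 and 180 min. Srf-null cells gave 427, 255, -87, 304 and 116 units at the same times. Rescue cells gave 94, 22, 328, 115 and 604 units. All 5 wild-type arrays were above the floor, 4 of 5 were in each of the other lines, and the ranges overlapped. Srf-null was lower than wild-type at 4 of 5 times and rescue lower than wild-type also at 4 of 5. The mean log2 level was 8.63 ± 0.68 (SD, n = 5) in wild-type, 7.65 ± 0.98 in Srf-null and 7.48 ± 1.25 in rescue cells.

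The Srf-null minus wild-type difference of Bcl2 was a log2 value of -0.98 ± 0.68 (SE), with a 95% interval from -2.46 to 0.49 and an adjusted p of 0.658 (limma, Benjamini-Hochberg over all tested probe sets). Rescue minus wild-type was -1.15 ± 0.68 (adjusted p = 0.749, limma), and rescue minus Srf-null -0.17 ± 0.68 (adjusted p = 0.963, limma). No neighbours in this order, wild-type, Srf-null and rescue, differed beyond their spread. On the 5 arrays with over 35% of values at or below 0, Bcl2 lay between -87 and 304 units (median 94), and on the other 10 between 115 and 604 (median 378). With that share as a covariate, Srf-null minus the mean of both other lines changed from -0.41 to 0.29. The other probe sets of Bcl2 carried little signal: 98868_at lay between -199 and 87 units and was above the floor on 1 array, and 98870_at between -589 and 220. The latter was above the floor only on wild-type 0 min (210 units) and Srf-null 10 min (220 units).

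Bcl2l1, which encodes the survival protein BCL-XL, had its highest mean in wild-type and its lowest in Srf-null cells, but the difference did not pass the test. Its probe set 99027_at gave 3219, 2392, 2339, 2924 and 3143 units in wild-type cells at 0, 10, 30, 60 and 180 min. Srf-null cells gave 1548, 1977, 2591, 1148 and 2110 units. Rescue cells gave 2436, 2265, 1813, 2604 and 2308 units. Srf-null was below wild-type at 4 of 5 times, with 30 min as the exception, rescue was below wild-type at 5 of 5, and rescue was above Srf-null at 4 of 5. The lines overlapped, because the Srf-null 30 min array lay inside the wild-type range. Mean log2 levels were 11.44 ± 0.22 (SD, n = 5) in wild-type, 11.15 ± 0.20 in rescue and 10.82 ± 0.45 in Srf-null cells.

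Srf-null minus wild-type for Bcl2l1 was -0.62 ± 0.21 on the log2 scale, with a 95% interval from -1.09 to -0.16. Its unadjusted p was 0.0131 and its adjusted p 0.413 (limma). Against the mean of both other lines it was -0.48 ± 0.19 (adjusted p = 0.402, limma), and rescue minus Srf-null was 0.33 ± 0.21 (adjusted p = 0.696, limma). The lowest Srf-null arrays, 0 and 60 min, were those with actin ratios of 2.94 and 3.83. With the ratio as a covariate the difference from both lines was -0.42 ± 0.21, and on the 12 arrays from 10 min on it was -0.38 ± 0.21. Without the Srf-null 60 min array alone it was -0.28. With arrays scaled to a common median it was -0.71 ± 0.22 (unadjusted p = 0.00631, adjusted p = 0.238, limma), and -0.89 ± 0.26 against wild-type (unadjusted p = 0.00371, adjusted p = 0.285, limma). That scaling moved the median of all tested from 0.01 to -0.22 in the former comparison and from 0.02 to -0.28 in the latter. The other Bcl2l1 probe set, 99026_at, lay between -434 and 59 units and was above the floor on 0 arrays.

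Mcl1 encodes a short-lived survival protein. Its transcript was lower in rescue than in Srf-null cells on the arrays from 10 min on, a difference that did not pass the test over all 15 arrays. Probe set 93093_at gave 9242, 6146, 6579, 7892 and 8045 units in wild-type cells. Srf-null cells gave 7327, 7008, 7055, 6770 and 10113 units. Rescue cells gave 10494, 4624, 4956, 5516 and 7118 units. From 10 min on, rescue was the lowest line at 4 of 4 times, below Srf-null and below wild-type, while at 0 min it was the highest. The ranges of rescue (4624 to 7118) and Srf-null (6770 to 10113) from 10 min on still overlapped.

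On all 15 arrays Mcl1 did not differ between lines beyond its spread. Rescue minus Srf-null was -0.28 ± 0.15 (log2, 95% interval -0.61 to 0.06, adjusted p = 0.641, limma). On the 12 arrays from 10 min on it was -0.48 ± 0.10 (95% interval -0.70 to -0.26, adjusted p = 0.0447, limma), which passed the threshold. In that comparison 1 of 8 tested probe sets of the family was called, against 2.25% of all 9558 tested. The wild-type and rescue 0 min arrays were doubted on these same data, so the call is not independent of leaving them out. Without only these arrays the difference was also -0.48 (adjusted p = 0.0454, limma). That setting is not a second check, because the time term then takes up the remaining 0 min array. The line difference is the same by construction. On the 12 arrays the value was -0.27 (adjusted p = 0.570, limma) with arrays scaled to a common median, a scaling that moved the median of all tested from -0.01 to 0.24, and -0.56 (adjusted p = 0.124, limma) with the share of values at or below 0 as a covariate. Without the Srf-null 0 min array alone it was -0.42 and without rescue 0 min alone -0.43, with adjusted p of 0.213 and 0.168 (limma).

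Rescue minus wild-type for Mcl1 from 10 min on was -0.38 ± 0.10 (adjusted p = 0.203, limma), and Srf-null minus wild-type 0.10 ± 0.10 (adjusted p = 0.682, limma). From 10 min on the trophoblast marker sum was 11202 to 17881 units in rescue, 5975 to 7489 in wild-type and 1168 to 2307 in Srf-null cells. It was highest in rescue, the line with the lowest Mcl1. It also differed between wild-type and Srf-null cells, whose Mcl1 levels did not differ beyond their spread. The part of this sum in the Mcl1 result was not tested.

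Bak1 encodes the effector BAK, which forms pores in the mitochondrial membrane. Probe set 104710_at gave 2845, 2083, 1110, 1426 and 809 units in wild-type cells at 0, 10, 30, 60 and 180 min. Srf-null cells gave 1696, 1123, 2092, 2392 and 1839 units. Rescue cells gave 2091, 2483, 2208, 2067 and 1501 units. Wild-type held both the highest and the lowest of the 15 values, and Srf-null and rescue lay inside its range. From 10 min on, rescue was above wild-type at 4 of 4 times.

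The geometric mean of Bak1 was 1500 units in wild-type, 1773 in Srf-null and 2042 in rescue cells, with an SD over 5 arrays of 0.72, 0.41 and 0.27 on the log2 scale. Rescue minus wild-type was 0.45 ± 0.29 on all arrays (adjusted p = 0.779, limma) and 0.67 ± 0.30 from 10 min on (adjusted p = 0.528, limma). Srf-null minus the mean of both was 0.02 ± 0.25 (95% interval -0.53 to 0.57, adjusted p = 0.989, limma). With arrays scaled to a common median it was -0.23, beside -0.22 over all tested.

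Bid encodes the BH3-only protein that caspase cleavage activates. Probe set 98433_at gave 125, 922, 730, 995 and 944 units in wild-type cells. Srf-null cells gave 1221, 859, 670, 465 and 1127 units, and rescue cells 317, 599, 573, 721 and 719. The 0 min arrays of wild-type and rescue were far below the rest of their lines, while in Srf-null cells 0 min was the highest. From 10 min on, rescue was below wild-type at 4 of 4 times and Srf-null below wild-type at 3 of 4. Srf-null minus the mean of both was 0.49 ± 0.42 on 15 arrays (adjusted p = 0.719, limma) and -0.04 ± 0.22 on 12. With the actin ratio as a covariate on 15 arrays it was 1.10 ± 0.29 (unadjusted p = 0.0029, adjusted p = 0.145, limma), and rescue minus Srf-null was -1.29 ± 0.34 (adjusted p = 0.162, limma).

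Bad encodes a BH3-only protein controlled by survival signalling. Its probe set 95817_f_at was close to the floor: wild-type cells gave 100, 182, 271, 61 and 124 units. Srf-null cells gave 199, 291, 271, 474 and 202 units, and rescue cells 159, 199, 23, 217 and 285. Srf-null was the only line above the floor on 5 of 5 arrays, was above wild-type at 4 of 5 times, and overlapped both others. The suffix f marks probes that are not unique to 1 transcript, so other transcripts could add to this signal.

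Srf-null minus wild-type for Bad was 0.97 ± 0.46 on the log2 scale (95% interval -0.03 to 1.97, adjusted p = 0.522, limma). Against the mean of both other lines it was 0.80 ± 0.40 (adjusted p = 0.510, limma), and after scaling to a common median 0.37, beside -0.22 over all tested. Of the other Bad probe sets, 99670_at was above the floor on 2 arrays, wild-type 10 and 60 min (173 and 183 units), and 95816_i_at, between -244 and 78 units, on 0. By 99670_at the Srf-null minus wild-type value was -0.43 ± 0.22 (adjusted p = 0.557, limma), opposite in sign to 95817_f_at.

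Over the family, 0 of 8 tested probe sets were called in each of the 4 comparisons of lines on 15 arrays (limma, adjusted p under 0.05). Over all tested probe sets, 0.136% were called for Srf-null minus the mean of both, 0% for Srf-null minus wild-type, 0.22% for rescue minus Srf-null and 0% for rescue minus wild-type. At an unadjusted p under 0.05, 1 of 8 passed in the first and in the second of these, Bcl2l1 both times, against 10.5% and 9.58% of all tested. In the last pair 0 of 8 passed, against 9.19% and 7.25%. The median Srf-null minus both difference of the 8 was 0.08, beside 0.01 over all tested. From 10 min on, percentages of all called were 1.16%, 0.324%, 2.25% and 0.398%, and Mcl1 in rescue minus Srf-null was the only family call.

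**Figure D2:**
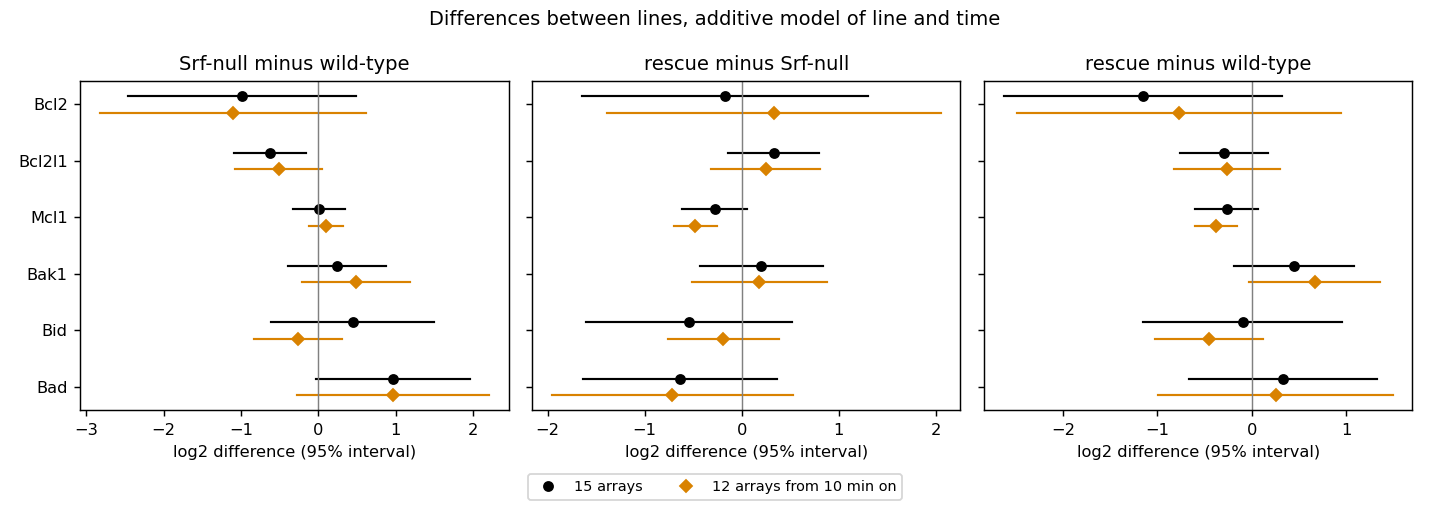
Differences between lines (x axis, log2, with 95% intervals) for 1 probe set per gene, on all 15 arrays (black circles) and on the 12 arrays from 10 min on (orange diamonds). The interval of Mcl1 for rescue minus Srf-null lay from -0.61 to 0.06 on 15 arrays and from -0.70 to -0.26 on 12.

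The response to serum was compared between phases of each line, with 0 and 10 min as baseline, 30 and 60 min as early and 180 min as late. Bak1 gave values of opposite sign in wild-type and Srf-null cells, and none of them passed the test. In wild-type cells Bak1 was lower than baseline by a log2 value of -0.95 ± 0.29 early (adjusted p = 1, limma) and -1.59 ± 0.35 late (unadjusted p = 0.00144, adjusted p = 0.174, limma). The late wild-type value is an array of 809 units against 2845 and 2083 at baseline, and without the 0 min arrays it was -1.36. In Srf-null cells the Bak1 values were 0.70 ± 0.29 early (adjusted p = 0.567, limma) and 0.41 ± 0.35 late (adjusted p = 0.984, limma). In rescue cells they were -0.09 ± 0.29 early (adjusted p = 1, limma) and -0.60 ± 0.35 late (adjusted p = 1, limma).

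The Bak1 response of Srf-null minus that of both other lines was 1.22 ± 0.35 early (unadjusted p = 0.00707, adjusted p = 0.311, limma) and 1.51 ± 0.43 late (unadjusted p = 0.00666, adjusted p = 0.451, limma). The share of values at or below 0 moved with this contrast. It was above 35% on the 3 Srf-null arrays from 30 min on and on the rescue baseline arrays, and Bak1 was between 1839 and 2483 units (median 2092) on those 5 arrays and between 809 and 2845 (median 1598) on the other 10. With the share as a covariate the response difference was -0.36 early (adjusted p = 0.887, limma) and 0.26 ± 0.85 late (adjusted p = 0.886, limma). Within wild-type cells the share was 25.0% to 29.0% on all 5 arrays, and the wild-type late value with the covariate was -1.63.

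For Bcl2, close to the floor on several arrays, late minus baseline was -0.71 ± 0.99 in wild-type, -1.51 ± 0.99 in Srf-null and 2.76 ± 0.99 in rescue cells, on the log2 scale. The rescue value, with an unadjusted p of 0.0208 and an adjusted p of 1 (limma), set the array of 604 units against 94 and 22, of which the last was at the floor. With the floor raised to the 60th percentile it was 0.43. The Srf-null response minus that of both other lines was -1.84 ± 0.99 early (adjusted p = 0.668, limma) and -2.54 ± 1.21 late (adjusted p = 0.658, limma). With the share of values at or below 0 as a covariate the early value was -7.87 ± 2.47 (unadjusted p = 0.0126, adjusted p = 0.191, limma). The early value was then -4.90 in Srf-null and 5.13 in rescue cells, against -1.04 and 1.12 without the covariate. The Bcl2 log2 levels themselves ran only from 6.41 to 9.24. The share was high on the early and late Srf-null arrays and on the rescue baseline arrays. This fit therefore cannot separate the share from the response, and no size of response is read from it.

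Bid gave 1.33 ± 0.82 for the early response in wild-type cells (adjusted p = 1, limma), resting on the 0 min value of 125 units. Without the 0 min arrays it was -0.11. Over the mean of 3 lines, early minus baseline lay between -0.18 (Mcl1) and 0.34 (Bid) for the 6 probe sets above the floor on 13 or more arrays. Late minus baseline lay between -0.59 ± 0.20 (Bak1, unadjusted p = 0.0171, adjusted p = 0.981, limma) and 0.78 (Bid). For Mcl1 it was 0.21 in the mean of 3 lines, and 0.51 without the 0 min arrays, where the baseline was 1 array per line. In that setting the late Mcl1 value was 0.39 in wild-type, 0.53 in Srf-null and 0.62 in rescue cells.

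In the 10 serum comparisons on 15 arrays, 0 of 8 family probe sets were called (limma). For the early phase the background called was 0% in the mean of 3 lines, 0% in wild-type, 0.0732% in Srf-null, 0% in rescue and 0.0209% for the response of Srf-null minus both. For the late phase it was 0.0523%, 0.282%, 0.0314%, 0% and 0.0105% in the same order. At an unadjusted p under 0.05, Bak1 passed early in wild-type (2.54% of all tested did), in Srf-null (8.17%) and in the response difference (8.61%). Late, Bak1 passed in the mean (4.05%), in wild-type (8.46%) and in the response difference (7.76%), and Bcl2 in rescue (3.62%). In the mean early (2.54%), early rescue (3.98%) and late Srf-null (4.96%) comparisons 0 of 8 passed.

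With the 0 min arrays left out, the baseline was 1 array per line, and 98870_at of Bcl2 was called lower in the mean, Srf-null and difference comparisons of both phases. That probe set was then above the floor only on Srf-null 10 min (220 units). The background called was 0.691%, 0.492%, 0.481%, 0.356% and 0.596% for the early phase and 1.74%, 2.2%, 0.638%, 0.931% and 1.56% for the late phase, in the same order.

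**Figure D3:**
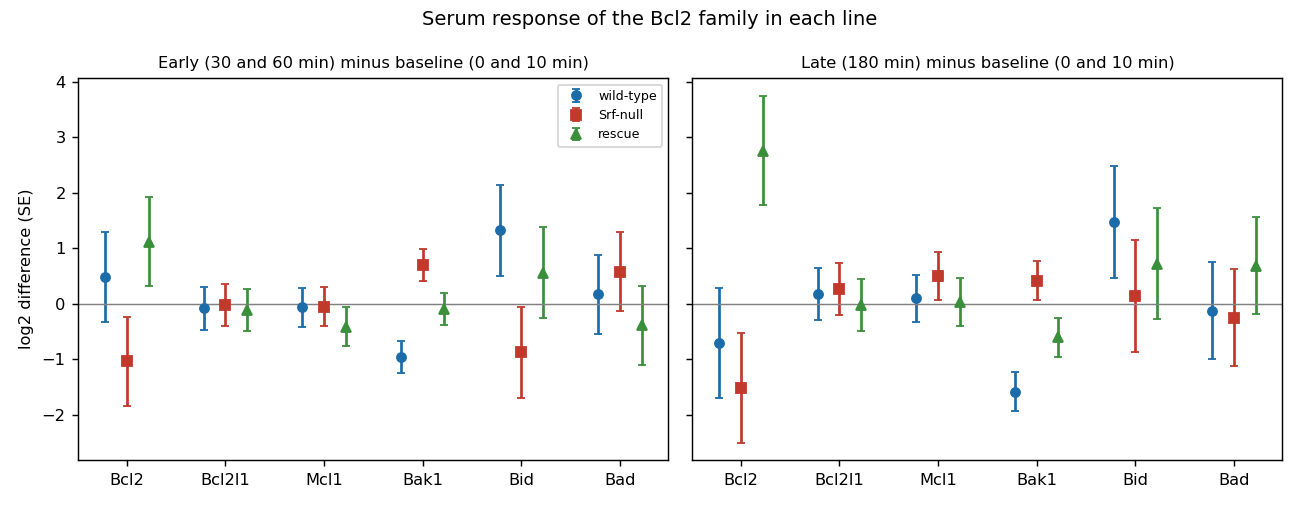
Early (left) and late (right) serum response (y axis, log2 difference from baseline, bars are SE) of 1 probe set per gene in wild-type, Srf-null and rescue cells. Bak1 was lowest in wild-type cells (-0.95 early, -1.59 late) and Bcl2 highest in rescue cells (2.76 late). With the 0 min arrays in the baseline, Bcl2l1 and Mcl1 stayed within 0.50 of it in all 3 lines. Without the 0 min arrays, late Mcl1 was 0.39 in wild-type, 0.53 in Srf-null and 0.62 in rescue cells.

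The other apoptosis genes were read from a list of 76, of which 53 were on the array and 41 tested by 53 probe sets. Of these, 14 were listed with the BCL2 family or its partners, Bag, Bnip and Vdac genes included. Another 12 were caspases and genes of mitochondrial release, 6 inhibitors of apoptosis, 4 death receptors and adaptors, and 5 genes of the p53 arm. In each of the 14 comparisons on 15 arrays 0 of 53 were called (limma). At an unadjusted p under 0.05, 3 (5.66%) passed for Srf-null minus both, against 10.5% of all tested. For the mean early response 1 (1.89%) passed against 2.54%, and for the mean late response 2 (3.77%) against 4.05%. Over the 14 comparisons 1 to 6 passed, with 6 (11.3%, against 8.61%) for the early response of Srf-null minus both. The next were 5 (9.43%) for the early response in Srf-null cells, against 8.17%, and 5 for rescue minus wild-type, against 7.25%. The median of the 53 was 0.01 for Srf-null minus both, beside 0.01 over all tested. For the mean early response it was -0.07 beside 0.00, and for the late response 0.00 beside -0.01.

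The smallest p-values for Srf-null minus both belonged to Cdkn1a, a cell cycle inhibitor induced by p53 (-1.10 ± 0.33 by 98067_at, adjusted p = 0.286, and -0.30 ± 0.32 by 94881_at, adjusted p = 0.767, limma), Bcl2l13 (-0.54 ± 0.21), the apoptosome scaffold Apaf1 (0.51 ± 0.22) and the death receptor adaptor Fadd (-1.16 ± 0.54). For the mean early response they were Cdkn1a (0.95 ± 0.38), Birc2, an inhibitor of apoptosis (-0.80 ± 0.36), Fadd (-0.77 ± 0.35) and Mdm2, which degrades p53 (0.49 ± 0.24). For the late response they were the adaptor Traf2 (-0.75 ± 0.29), Cdkn1a (1.10 ± 0.47), Mdm2 (0.64 ± 0.30) and the adaptor Cradd (-1.01 ± 0.52). For Srf-null minus both, adjusted p was 0.396 for Bcl2l13, 0.460 for Apaf1 and 0.480 for Fadd (limma). Each of the early values had an adjusted p of 0.995 (limma). Fadd was above the floor on 3 of 5 Srf-null arrays, and Cradd on 3 of 5 wild-type and 2 of 5 rescue arrays.

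From 10 min on, 1 of 53 list probe sets (Cdkn1a 94881_at) was called in rescue minus Srf-null, against 2.25% of all tested. In rescue minus wild-type 1 of 53 (Mdm4 93339_at) was called, against 0.398%. Cdkn1a by 94881_at lay between 1881 and 2804 units in rescue, 622 and 1217 in Srf-null and 949 and 1304 in wild-type cells, so that rescue did not overlap the others. Its rescue minus Srf-null difference was 1.23 ± 0.22 (adjusted p = 0.0322, limma), against 0.84 and an adjusted p of 0.507 (limma) on all 15 arrays. By 98067_at Cdkn1a lay between 742 and 1880 units in rescue, 332 and 567 in Srf-null and 314 and 887 in wild-type cells, so that rescue overlapped wild-type. Its rescue minus Srf-null difference by that probe set was 1.47 ± 0.37 (adjusted p = 0.0972, limma). Mdm4, a p53 inhibitor, lay by 93339_at between 3021 and 3714 units in rescue, 1749 and 2204 in wild-type and 2594 and 3521 in Srf-null cells. Rescue was above wild-type by 0.77 ± 0.11 (adjusted p = 0.0296, limma), beside 0.73 and an adjusted p of 0.115 (limma) on 15 arrays. From 10 min on Srf-null was above wild-type by 0.67 ± 0.11 (adjusted p = 0.0617, limma), and rescue minus Srf-null was 0.10 ± 0.11. By the other Mdm4 probe set, 93338_at, rescue minus wild-type was -0.18 ± 0.27. That probe set was above the floor on 1 of 5 arrays in wild-type and in rescue and on 0 in Srf-null cells.

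**Figure D4:**
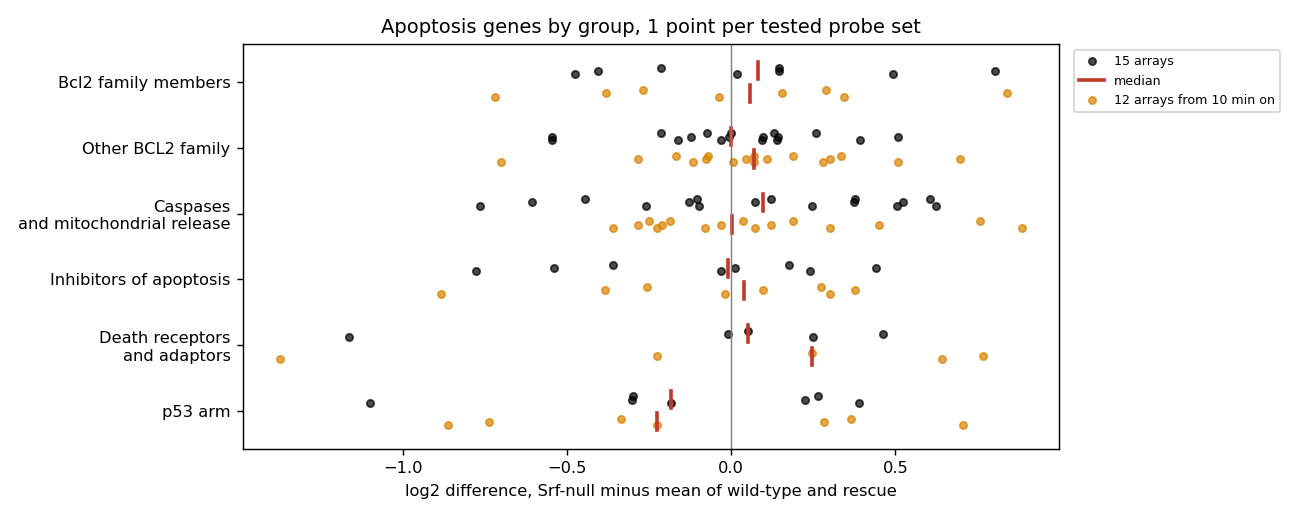
Srf-null minus the mean of wild-type and rescue (x axis, log2) for every tested probe set of the family and of 5 further groups of apoptosis genes, on 15 arrays (black) and on the 12 from 10 min on (orange), with medians as red bars. The family ran from -0.48 (Bcl2l1) to 0.80 (Bad) on 15 arrays, and every group had values on both sides of 0.

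The 6 genes did not share a profile over the 15 arrays. Pearson correlations of their log2 values, a description over arrays that share lines, times and quality, ran from -0.56 (Bak1 with Bid) and -0.55 (Bcl2l1 with Bad) to 0.25 (Bcl2l1 with Mcl1) in 15 pairs. Among the 4303 named probe sets above the floor on all arrays, Bcl2 was most like Gal (0.83), Rab2a (0.83) and Ezh1 (0.80). The closest to Bcl2l1 were Reep5 (0.92), E2f8 (0.85) and Krtap13 (0.81).
The closest to Mcl1 were Nop56 (0.90), Herc4 (0.89) and Vegfc (0.89), and to Bak1 Polr1a (0.91), Uqcc1 (0.88) and Ece1 (0.86). Bad, read near the floor, was most like Marchf5 (0.75), Map4 (0.72) and Asb3 (0.71). Bid was most like Cul4a (0.95), Anapc2 (0.94) and Cks2 (0.92), and over the 12 arrays from 10 min on these values were 0.74, 0.66 and 0.56. For the other 5 genes the correlations over those 12 arrays lay between 0.73 (Bcl2 with Ezh1) and 0.93 (Bak1 with Polr1a).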

How the data were processed

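The authors deposited intensity values, linear and partly below 0, for 12654 probe sets (66 of them controls) on 15 arrays. Their software, background correction, scaling and genome build are not stated in the labels or the file. Groups came from the sample titles. Arrays were quantile-normalized, values below their 40th percentile (84.98) were raised to it as a floor, and the logarithm to base 2 was used. Tests covered the 9558 probe sets that exceeded the floor on 2 or more arrays, with limma 3.58.1 in R 4.3.3 (lmFit, eBayes with trend). A probe set was called at an adjusted p under 0.05 (Benjamini-Hochberg over all of these). A call of Srf-null against both lines also needed 1 direction against each. Line and time entered additively for the lines (8 residual degrees of freedom), and serum phases were fitted as line by phase cells (6). The number of arrays limits the precision, and 0 pairs of arrays were identical. The models were also run on simulated arrays with independent noise and shifts planted in probe sets above the floor. These arrays had no values raised to the floor and no differences in quality, so they do not bear on calls near the floor. Figures used matplotlib 3.10.9 in Python 3.11.15.

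Gene names are those of the platform annotation, brought up to date through gene identifiers for 10279 probe sets. It gave 1 symbol for 10298 probe sets, several for 363 and none for 1993, and only those with 1 were named. Named were every family probe set, other apoptosis genes called in a comparison or among the 4 smallest p for Srf-null against both and for the mean responses, and the 3 genes most like each member. Calls without the 0 min arrays that came from probe sets at the floor on most arrays are named with that limit. Members and lists were chosen with earlier results of these data known. Alternatives covered scaling, floor, filter, covariates for the share of values at or below 0 and the actin ratio, the time term, joined phases, the 0 min arrays and each array left out.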

Additional observations from a re-analysis of the deposited data

Results flagged for a closer look

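Of 18 sets of 5 arrays (6 probe sets in 3 lines), 3 held a sample far from the others, with a gap above 0.71 of the whole range. Chance gives this in about 1 in 20 sets. Mcl1 in Srf-null cells at 180 min was 10113 units against 6770 to 7327 at the other times, a gap of 0.803 of the range. Bid in wild-type cells at 0 min was 125 units against 730 to 995, a gap of 0.850. Bid in rescue cells at 0 min was 317 units against 573 to 721, a gap of 0.721. The last pair are arrays with beta-actin 3′ to 5′ ratios of 7.53 and 4.22, and the part of RNA quality in these values was not tested.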

How the results depend on the processing

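Counts of family calls were 0 in all 14 comparisons and within 146 of 154 alternatives that changed a setting or left out several arrays. Without all 0 min arrays the count was 1 for rescue minus Srf-null (Mcl1), and also 1 without only the wild-type and rescue 0 min arrays, an alternative chosen after seeing the data. In that alternative the time term takes up the remaining 0 min array. Its line differences therefore equal those without all 0 min arrays by construction, and it is not a second check. Without all 0 min arrays the count was 1 as well for the early and the late response in the mean of 3 lines, in Srf-null cells and in the difference of response. These 6 calls came from Bcl2 98870_at, whose Srf-null 10 min value of 220 units was then its only value above the floor, with every other value at the floor. Leaving out 1 array at a time left 13 of the 14 counts at 0. The count for early minus baseline in wild-type cells changed, through Bid, only without the 10 min array. The baseline was then the wild-type 0 min array alone, with Bid at 125 units and an actin ratio of 7.53, and the Bid difference was 2.77.

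Of 425 family and named-gene differences under such alternatives 31 changed sign, and none of these was called. With the share of values at or below 0 as a covariate, these were Bcl2 98869_g_at for Srf-null minus both (0.29, and 0.0225 without 0 min), Bak1 for the same (-0.22, and -0.23 without 0 min), Bak1 early in Srf-null (-0.31) and rescue (0.96), late in Srf-null (-0.31) and rescue (0.47), and its early response difference (-0.36). With the actin ratio as a covariate they were Bcl2 98870_at (-0.0631) and Bak1 (-0.0824) for Srf-null minus both and Bid for the mean early response (-0.16). Scaling to a common median, which moved the median of all tested for Srf-null minus both from 0.01 to -0.22, gave Mcl1 -0.10 and Bak1 -0.23 (-0.12 without 0 min), Bid -0.44 without 0 min, Bak1 early in rescue 0.23, and Bcl2 in rescue minus Srf-null 0.22 (0.86 without 0 min). For rescue minus Srf-null that scaling moved the median of all tested from -0.02 to 0.15. A floor at the 60th percentile gave 0.0852 for Bcl2 in rescue minus Srf-null and -0.0541 for Bid in the mean early response. Without 0 min arrays, Bid was -0.038 for Srf-null minus both, Bcl2 0.33 for rescue minus Srf-null, and Bid -0.11 for the early wild-type response, the same without only the wild-type and rescue 0 min arrays. The mean early response was then 0.13 and 0.12 for Mcl1 and -0.21 and -0.30 for Bid. The cause of these changes was not tested.

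With 1 array left out, values crossing 0 ran from -0.72 to 0.0885 (Bcl2 98869_g_at), -0.16 to 0.34 (Bcl2 98870_at), -0.16 to 0.28 (Bak1) and -0.038 to 0.83 (Bid) for Srf-null minus both. They ran from -0.80 to 0.27 for Bcl2 in rescue minus Srf-null, -0.37 to 0.0201 (Mcl1) and -0.14 to 0.82 (Bid) for the mean early response, -0.22 to 0.0308 for Bak1 early in rescue and -0.11 to 2.77 for Bid early in wild-type. Cdkn1a 94881_at in rescue minus Srf-null ran from 0.58 to 1.28 and was called without Srf-null 0 min. Counts over all probe sets without 1 array ran from 3 to 66 for Srf-null minus both (13 on all arrays) and from 4 to 103 for rescue minus Srf-null (21). Signal limits Bcl2 and Bad, which lay near the floor. The planned floor at the 20th percentile was not run because that percentile is -102.4, and the 35th was used. Late values of a line cannot be had without its 180 min array. Samples carry no replicate numbers; the time point served as the block that pairs the lines, and fits of line without a time term changed no call.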

Other observations

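With the 0 min arrays left out, 3 of 53 other apoptosis probe sets were called lower for the mean early response (Diablo, Casp4 and Mdm4 93338_at), against 0.691% of all tested, and 2 for the mean late response (Diablo and Casp4), against 1.74%, by limma. For the response of Srf-null minus both, Diablo was called higher early (1 of 53, against 0.596%) and Diablo and Casp4 late (2 of 53, against 1.56%). Within lines, Diablo (-1.73) and Mdm4 93338_at (-1.27) were lower than the 10 min array in wild-type cells in both phases, and Casp4 (-1.295) in rescue cells. Bcl2l11 99419_g_at was called higher late in rescue cells, where 0.931% of all tested were called. The baseline of each line was then its 10 min array alone, and these probe sets were at the floor on most arrays.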
